A study of Homo sapiens with 10 samples.

Results

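The genes described here encode the ligands, receptors, inhibitors and feedback targets of Wnt signalling in MCF10A cells, a human mammary epithelial line that grows indefinitely in culture and is not tumorigenic. RNA was measured on 10 Affymetrix arrays, 5 of MCF10A cells knocked out for the gene of the histone variant H2A.X (H2A.X-KO) and 5 of parental MCF10A cells (WT), which carry the intact gene. Both groups were cultured for 48 h in the same medium with horse serum, EGF, insulin, hydrocortisone and cholera toxin. Samples carry replicate numbers 1 to 5 within each group; nothing in the labels ties them to independent cultures, or says if the knockout line was 1 clone, so the p-values rest on a spread between samples that may be technical. Of 57 listed genes, 39 had a probe set named in the platform annotation used here, out of 14884 genes in all, and each of the 39 had a single probe set. The other 18, namely 14 of the 15 Wnt ligands, the ligand acyltransferase gene PORCN and the TCF genes TCF7, TCF7L1 and TCF7L2, were not analysed here.

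Wnt proteins are secreted lipid-modified ligands that bind Frizzled receptors together with co-receptors. When LRP5 or LRP6 is the co-receptor, a cytoplasmic destruction complex built on AXIN and APC is switched off. Beta-catenin then accumulates and activates genes with the TCF/LEF factors. ROR and RYK receptors are known for routes that do not use beta-catenin, though not for these alone in the case of RYK. In the mammary gland Wnt signals are known for maintaining basal stem cells and for duct branching, and secreted antagonists such as the DKK and SFRP proteins restrain them.

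Values are log2 signals, on which a difference of 1 is a 2-fold change, and differences are H2A.X-KO minus parental. The array medians lay between 4.26 and 4.35 in all 10 samples, and differences over all genes had a median of 0.00. On the second principal component of all genes knockout replicate 1 lay far from the rest of its group, at 20.2 against -9.47 to -2.52. It gave the lowest knockout value for 15 of the 39 Wnt genes (38.5%), against 29.6% of all genes. It also gave the highest knockout value for 11 of the 39 (28.2%), against 22.5% of all genes. Of 9 basal breast markers 3 were measured, KRT5, KRT14 and EGFR, and in knockout and parental cells alike they exceeded 5.49, the median over genes of the mean signal. The targeted gene was not analysed here, so the groups rest on the labels.

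Of the 39 Wnt genes, 5 were higher and 3 lower in the knockout cells at an adjusted p under 0.05 (limma, Benjamini-Hochberg over all 14884 genes). DKK1 rose 3.55-fold and SFRP1 1.44-fold, both secreted antagonists. Among receptors FZD2, LRP5 and LGR4 rose while FZD6 and LRP6 fell, and the nuclear factor gene LEF1 fell. The 8 calls make up 20.5% of the genes, against 34.3% of all genes called in this comparison, 15.3% of all genes higher and 19.0% lower. Without knockout replicate 3 the number lower was 5, and it was 2 without knockout replicate 1 or without parental replicate 2, 3 or 5, in each case because the LEF1 call ended. Without knockout replicate 1 the number higher was 7. The median difference of the 39 was 0.03, beside 0.00 over all genes.

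In 6 of the 39 genes the arrays of the groups did not overlap, a separation seen in 28.2% of all genes. DKK1 alone among them changed at least 2-fold, as did 2.81% of all genes. In 19 of the 39 both group means lay at or under the gene median of 5.49; they are called dim here, and a small difference between dim values does not show equal expression. Calls depended strongly on brightness: 55.9% of all genes above that median were called, 24.3% higher and 31.5% lower, against 11.1% of the dim genes, 5.48% higher and 5.59% lower. Of the 20 Wnt genes above it 7 were called, and of the 19 dim ones LEF1 was the 1 called.

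**Figure D1:**
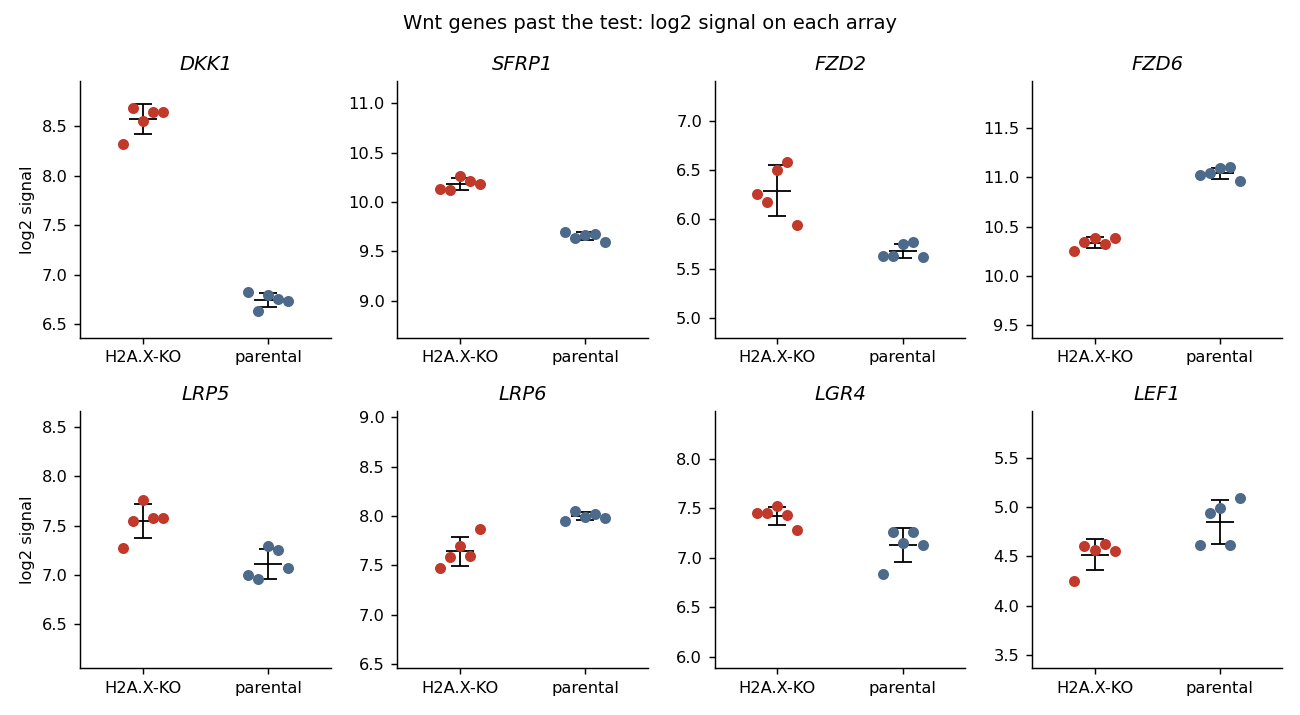
Log2 signal on each of the 5 H2A.X-KO arrays (red, left) and the 5 parental arrays (blue, right) for the 8 Wnt genes past the test, with group mean and SD in black; each panel spans the same range of log2 units. DKK1 shows the widest gap, with knockout arrays between 8.32 and 8.69 and parental arrays between 6.63 and 6.82, while the LRP5 and LEF1 arrays of the groups overlap.

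The inhibitors were led by DKK1, the gene of a secreted protein that binds LRP5 and LRP6 and takes them out of the ligand complex. Its log2 signal in knockout replicates 1 to 5 was 8.32, 8.69, 8.56, 8.65 and 8.65, against 6.82, 6.63, 6.79, 6.75 and 6.73 in parental replicates 1 to 5. The lowest knockout array thus stood well over the highest parental array, and knockout replicate 1 was the lowest of its group. The group means were 8.57 ± 0.15 and 6.74 ± 0.07 (SD, n = 5 each), a difference of 1.83 ± 0.07 (SE, limma adjusted p = 1.85e-09). With any array left out the difference lay between 1.80 and 1.89.

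DKK1 is a known beta-catenin target in other human cells, and its promoter is shown because it belongs to the gene with the largest difference of the 39 and because TCF/LEF factors bind a known core motif. The 250 bases before the annotated start were searched on both strands for that core, TCAAAG, which reads CTTTGA on the other strand. The same stretch of LEF1, the gene that fell and itself encodes such a factor, is given beside it. Sequences are those of RefSeq on GRCh38.p14, 5′ to 3′ on the strand of the gene, with each match in capitals.
DKK1 (chr10:52314031-52314280, plus strand): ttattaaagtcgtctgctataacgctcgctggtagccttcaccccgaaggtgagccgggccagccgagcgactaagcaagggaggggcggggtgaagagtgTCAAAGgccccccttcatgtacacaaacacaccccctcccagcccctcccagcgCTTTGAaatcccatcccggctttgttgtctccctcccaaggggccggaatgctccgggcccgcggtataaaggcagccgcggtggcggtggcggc
LEF1 (chr4:108166302-108166551, minus strand): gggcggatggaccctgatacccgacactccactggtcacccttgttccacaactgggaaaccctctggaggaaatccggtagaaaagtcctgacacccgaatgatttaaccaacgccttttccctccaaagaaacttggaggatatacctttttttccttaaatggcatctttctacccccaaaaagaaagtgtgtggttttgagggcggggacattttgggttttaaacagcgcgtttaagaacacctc

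The DKK1 stretch held 2 matches, starting 149 and 95 bases before the start, and the LEF1 stretch held 0. Of the 39 measured genes, 22 had an entry in the promoter table, and DKK1 was the 1 among them with a match. Among all 35116 windows of this length 11.2% held the motif. LGR4 and LRP5, the other called genes with an entry, had 0 matches. A match describes the letters of the window and was not measured as a binding site.

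SFRP1, which encodes a secreted Frizzled-related protein that binds Wnt ligands, was at 10.13, 10.12, 10.26, 10.21 and 10.18 in knockout replicates 1 to 5, against 9.70, 9.63, 9.67, 9.68 and 9.59 in parental replicates 1 to 5. All knockout arrays lay above all parental arrays, within a narrow spread in both groups. The difference was 0.53 ± 0.05 (SE, limma adjusted p = 3.63e-06), between 0.51 and 0.54 with any array left out. The 9 other secreted inhibitors did not pass, so that 18.2% of the 11 were called, where 34.3% of all genes were. Their differences ran from -0.13 for DKK2 to 0.16 for DKK4, with FRZB at 0.14, NOTUM, a hydrolase that removes the lipid of Wnt ligands, at 0.10, DKK3 at 0.09, SFRP2 and SFRP4 at 0.02 each, WIF1 at -0.03 and SFRP5 at -0.07. DKK1 and SFRP1, the 2 inhibitors above the median signal, were both called, beside 55.9% of all genes that bright. The other 9 were all dim, and of all dim genes 11.1% were called. Their 95% intervals for these 9 reached down to -0.32 (DKK2) and up to 0.36 (DKK4). The only ligand gene measured, WNT2, was also dim, at 3.65 ± 0.16 in knockout and 3.61 ± 0.21 in parental cells (SD, n = 5 each), with a 95% interval of the difference from -0.19 to 0.27.

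Markers of breast and other cell types differed between the same arrays. The 3 measured basal markers rose, KRT14 by 2.59, KRT5 by 0.78 and EGFR by 0.69. Their mean log2 level was 10.70 to 10.88 over the knockout arrays and 9.35 to 9.51 over the parental arrays. Of 6 luminal markers 3 fell, EPCAM at -2.14, KRT18 at -0.94 and GATA3 at -0.44. KRT8 did not pass, nor did KRT19 and ESR1, both dim in both groups. The luminal mean was 6.21 to 6.36 in knockout and 6.84 to 6.99 in parental arrays. Of 9 listed fibroblast markers 3 were measured and 1, the proteoglycan gene DCN, rose by 2.06; their mean log2 level ran from 4.73 to 4.89 over the knockout arrays and from 3.98 to 4.25 over the parental arrays. LUM and THY1, the other fibroblast markers, were dim in both groups and did not pass. Of 3 measured endothelial markers KDR rose by 1.69 and PECAM1 and VWF, both dim, did not pass; the list mean ran from 4.35 to 4.65 in knockout and from 3.83 to 4.02 in parental arrays. Of 5 listed immune markers 2 were measured, CD14, which was dim in both groups, and CD68, and both fell. The part of these shifts in the differences of the Wnt genes was not tested. Fewer cells expressing a gene and less RNA of it per cell cannot be told apart in such samples.

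Of the 10 Frizzled receptors 1 was higher, 1 lower and 8 did not pass, so that 20% were called, where 34.3% of all genes were; 5 of the 10 were dim. FZD6, a receptor known for planar cell polarity in mouse, was at 10.25, 10.34, 10.38, 10.32 and 10.39 in knockout replicates 1 to 5, against 11.02, 11.04, 11.09, 11.10 and 10.96 in parental replicates 1 to 5. Every knockout array lay under every parental array. The difference of -0.71 ± 0.05 (SE, limma adjusted p = 3.05e-07) is a 1.63-fold lower signal, and it ran from -0.73 to -0.69 with an array left out. This was the largest fall among the 39 genes.

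FZD2, a receptor used by WNT5A in other systems, was at 6.26, 6.17, 6.50, 6.58 and 5.94 in knockout replicates 1 to 5, against 5.63, 5.63, 5.75, 5.77 and 5.62 in parental replicates 1 to 5. The groups did not overlap, but the knockout arrays were the more scattered, with an SD of 0.26 against 0.07 in parental cells, and knockout replicate 5 came close to the parental arrays. The difference was 0.61 ± 0.11 (SE, limma adjusted p = 0.000465). When single arrays were dropped it ranged between 0.54 and 0.70. FZD2 lies on chromosome 17 in a neighbourhood that was higher in the knockout cells. Of the 20 nearest genes above the median signal, 10 on each side, 13 rose and 1 fell, with a median of 0.28. Among all genes above the median signal 24.3% rose and 31.5% fell, the shares to set beside this and the later neighbour counts. The comparison was added after seeing the data, and the part of that neighbourhood in the FZD2 rise was not tested.

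Differences of the other Frizzled genes ran from -0.21 for FZD1 to 0.21 for FZD8. FZD1 was at 5.10 to 5.40 in knockout and 5.13 to 5.52 in parental arrays, with a 95% interval of the difference from -0.40 to -0.03 and an adjusted p of 0.0756 by limma. It passed without parental replicate 1, the lowest parental array (-0.29, adjusted p = 0.00824), and without knockout replicate 3 (-0.26, adjusted p = 0.0312). FZD8 was at 6.07 in knockout replicate 1 and 6.41 to 6.59 in the other knockout arrays, against 6.02 to 6.34 in parental arrays. Without knockout replicate 1 it passed (0.29, limma adjusted p = 0.00924). FZD4 was at 0.16, FZD3 at 0.12, FZD5 at -0.01, FZD9 at -0.04, FZD7 at -0.07 and FZD10 at -0.12.

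**Figure D2:**
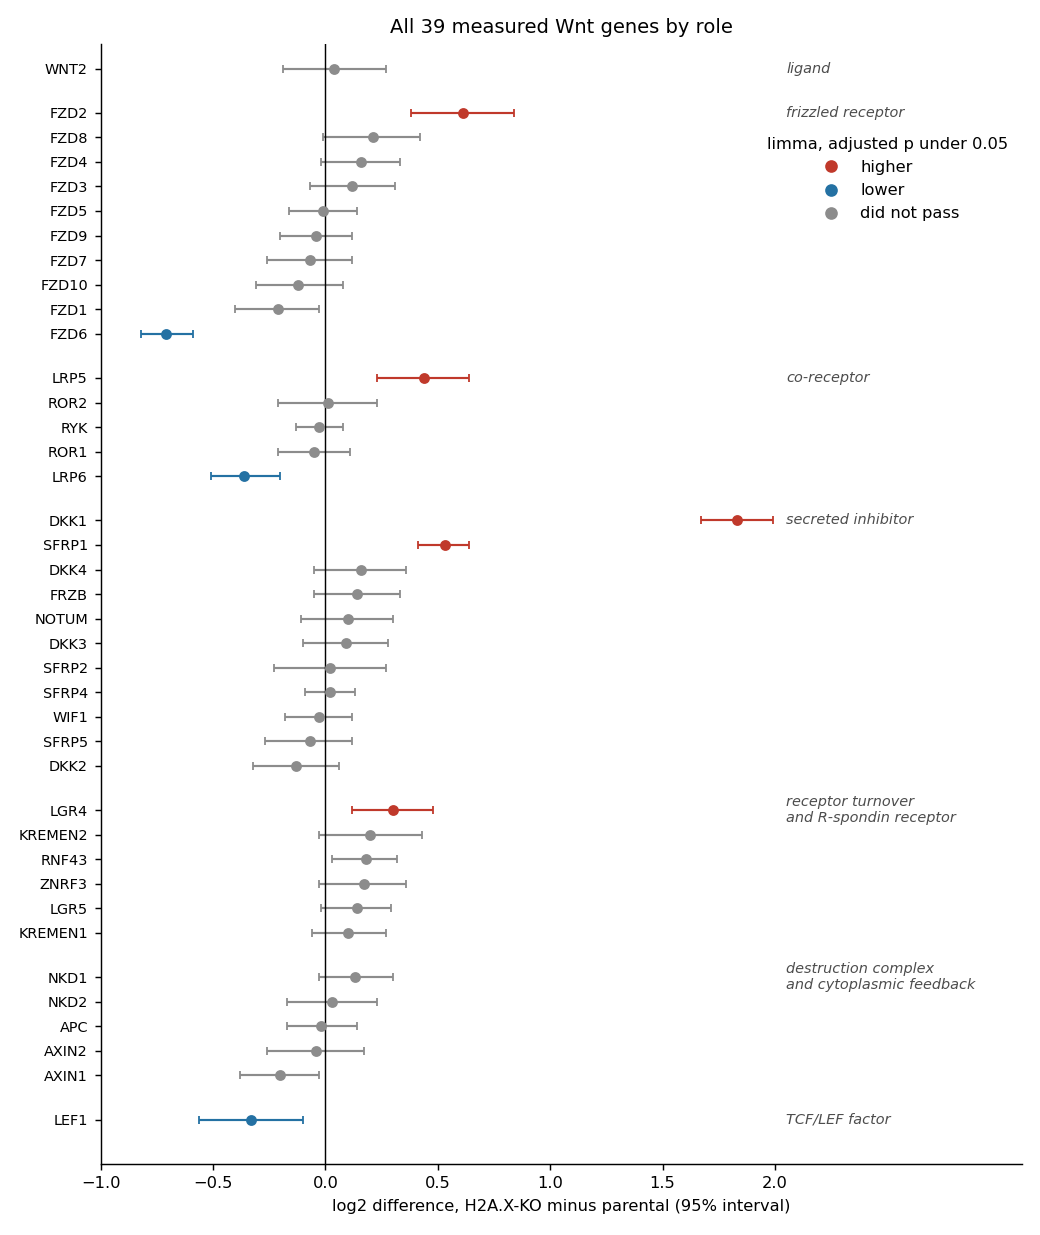
Log2 difference, H2A.X-KO minus parental, with its 95% interval from limma for each of the 39 measured Wnt genes, grouped by role; red points were higher, blue lower and grey did not pass. DKK1 at 1.83 stands far to the right of all others, and the Frizzled and co-receptor groups each hold 1 gene higher and 1 lower.

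The LRP co-receptors shifted in opposite directions. LRP5 was at 7.27, 7.55, 7.76, 7.58 and 7.58 in knockout replicates 1 to 5, against 7.00, 6.96, 7.29, 7.25 and 7.07 in parental replicates 1 to 5. Knockout replicate 1 fell just short of parental replicate 3, and the other knockout arrays lay above all parental arrays. The difference was 0.44 ± 0.09 (SE, limma adjusted p = 0.00244). LRP6, its close relative, was at 7.47, 7.58, 7.69, 7.59 and 7.87 in knockout replicates 1 to 5, against 7.95, 8.05, 7.99, 8.02 and 7.98 in parental replicates 1 to 5. The groups did not overlap, although knockout replicate 5 came near to the parental arrays, which were tightly grouped. The difference was -0.36 ± 0.07 (SE, limma adjusted p = 0.00141). With an array left out LRP5 ran from 0.38 to 0.50 and LRP6 from -0.41 to -0.31, and both calls held each time.

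The tyrosine kinase-like co-receptors did not pass, so that 40% of the 5 co-receptors were called, where 34.3% of all genes were. Of the 5, 4 were above the median signal, where 55.9% of all genes were called. RYK was at 8.87 ± 0.04 in knockout and 8.90 ± 0.03 in parental cells (SD, n = 5 each), so closely measured that the 95% interval of its difference ran from -0.13 to 0.08. ROR1 differed by -0.05 (95% interval -0.21 to 0.11) and ROR2 by 0.01 (-0.21 to 0.23). ROR2 was dim in both groups.

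Of 6 genes that set how long receptors stay at the cell surface, 1 passed the test. That is 16.7% called, where 34.3% of all genes were. Of the 6, 5 were above the median signal, where 55.9% of all genes were called. The median of the 6 differences was 0.17. LGR4 encodes a receptor for R-spondins, which keep Frizzled proteins at the surface by removing the ubiquitin ligases RNF43 and ZNRF3. It was at 7.45, 7.45, 7.53, 7.43 and 7.28 in knockout replicates 1 to 5, against 6.84, 7.26, 7.15, 7.26 and 7.13 in parental replicates 1 to 5. The groups were only narrowly apart, between knockout replicate 5 and parental replicates 2 and 4, and parental replicate 1 was the lowest of all. The difference was 0.30 ± 0.08 (SE, limma adjusted p = 0.0123), between 0.23 and 0.34 with an array left out.

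RNF43 was at 6.33, 6.44, 6.56, 6.32 and 6.40 in knockout replicates 1 to 5, against 6.08, 6.34, 6.29, 6.22 and 6.21 in parental replicates 1 to 5. Only parental replicate 2 reached into the knockout range. The difference of 0.18 ± 0.07 (SE) missed the threshold, at a limma adjusted p of 0.0568, and passed under 5 of the 17 alternatives. RNF43 also lies on chromosome 17, where 14 of its 20 neighbours rose and 2 fell, with a median of 0.55. How far that neighbourhood enters the RNF43 difference was not tested. The 4 other genes of this group did not pass, namely KREMEN2 at 0.20 and KREMEN1 at 0.10, whose products are receptors for DKK proteins, ZNRF3 at 0.17 and LGR5 at 0.14. The 95% interval of the KREMEN2 difference reached from -0.03 to 0.43.

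None of the 5 cytoplasmic members passed, where 34.3% of all genes did; 4 of the 5 were above the median signal. At an unadjusted p under 0.05 AXIN1 alone differed, with knockout arrays at 6.41 to 6.84 and parental arrays at 6.73 to 6.99. AXIN1 encodes the scaffold of the destruction complex, and its difference was -0.20 ± 0.08 (SE, limma adjusted p = 0.0763). It passed without knockout replicate 3 (-0.25, adjusted p = 0.0341) and when the dimmest genes were left out of the table (adjusted p = 0.0356). APC, the other scaffold, was at 6.47 ± 0.15 in knockout and 6.48 ± 0.05 in parental cells (SD, n = 5 each), with a 95% interval of the difference from -0.17 to 0.14.

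Of the 39 genes, 9 are known to be induced by the pathway in other systems, namely AXIN2, NKD1, NKD2, LGR5, RNF43, ZNRF3, LEF1, NOTUM and DKK1. DKK1 rose, LEF1 fell and the other 7 did not pass, a share of 22.2% called, where 34.3% of all genes were. Of the 9, 5 were above the median signal and 1 of these was called, beside 55.9% of all genes that bright. The other 4, AXIN2, LGR5, LEF1 and NOTUM, were dim. AXIN2, the most widely used readout among the 9, was at 4.52 ± 0.19 in knockout and 4.57 ± 0.14 in parental cells (SD, n = 5 each). Its difference of -0.04 had a 95% interval from -0.26 to 0.17. NKD1, which binds Dishevelled, differed by 0.13 (95% interval -0.03 to 0.30) and NKD2 by 0.03 (-0.17 to 0.23).

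LEF1, the 1 TCF/LEF factor measured, was at 4.25, 4.60, 4.56, 4.63 and 4.55 in knockout replicates 1 to 5, against 4.62, 4.94, 4.99, 4.61 and 5.09 in parental replicates 1 to 5. Parental replicates 1 and 4 lay within the knockout range and knockout replicate 1 was well under the rest. The difference was -0.33 ± 0.11 (SE, limma adjusted p = 0.0276). It did not pass without knockout replicate 1 (-0.27, adjusted p = 0.0633), without parental replicate 2 (-0.31, adjusted p = 0.065), without parental replicate 3 (-0.30, adjusted p = 0.0683) or without parental replicate 5 (-0.27, adjusted p = 0.0704). LEF1 was dim in both groups.

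**Figure D3:**
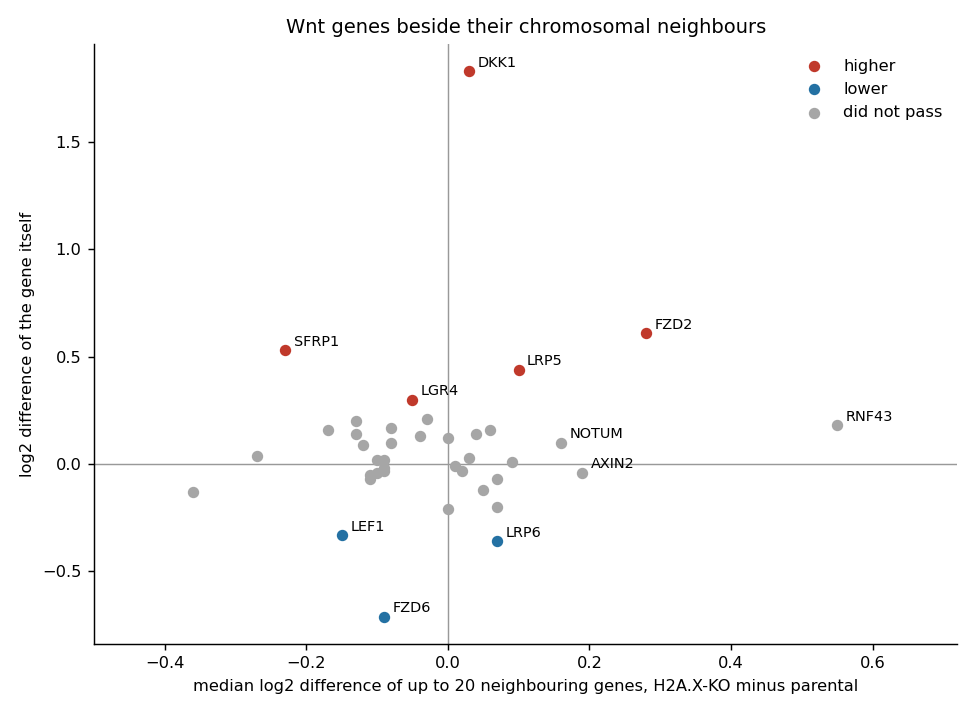
Log2 difference of each of the 39 Wnt genes, H2A.X-KO minus parental, against the median difference of up to 20 neighbouring genes above the median signal on the same chromosome, with genes past the test in red (higher) or blue (lower). DKK1 sits at 1.83 over neighbours at 0.03, whereas FZD2 and RNF43 sit in neighbourhoods at 0.28 and 0.55.

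The neighbours of the other called genes showed smaller median shifts. The median difference of 20 neighbours was 0.03 for DKK1, 0.10 for LRP5, 0.07 for LRP6, -0.05 for LGR4, -0.09 for FZD6 and -0.15 for LEF1. SFRP1 rose among neighbours with a median of -0.23. Of the 20 LEF1 neighbours 10 fell and 5 rose, and of the 20 SFRP1 neighbours 9 fell and 3 rose. The part of these neighbourhoods in the differences of LEF1 and SFRP1 was not tested. On chromosome 17, AXIN2 at -0.04 and NOTUM at 0.10 did not pass, beside neighbour medians of 0.19 and 0.16.

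Of 134 further pathway genes in 4 lists, 82 were measured; 16 of them were higher and 24 lower in knockout cells, a share of 48.8% called, where 34.3% of all genes were. Of the 82, 58 were above the median signal and 36 of these were called, beside 55.9% of all genes that bright, so the share over all genes is not a like-for-like measure. CTNNB1, the gene of beta-catenin itself, was not analysed here. Among 20 ligand partners and relatives 4 rose and 2 fell, a share of 30% called. WLS, which carries Wnt ligands to the surface, rose by 0.32, the proteoglycan gene SDC1 by 0.42 and LRP4, a receptor for the antagonist sclerostin, by 0.40. The rise of CTHRC1, a secreted glycoprotein gene, was 0.27 at an adjusted p of 0.0494 by limma, and it did not pass under 12 of 16 alternatives. TPBG, which inhibits Wnt signalling in zebrafish, fell to 6.62 ± 0.15 in knockout cells, against 7.37 ± 0.08 in parental cells (SD, n = 5 each), a difference of -0.75 ± 0.08 (SE). IGFBP4, a growth factor binding protein gene, fell by 0.41. The 4 R-spondin genes, named after their values were seen, did not pass, with differences of 0.05 to 0.07. RSPO2, RSPO3 and RSPO4 were dim in both groups, and RSPO1 was little above the median signal, at 5.65 in knockout and 5.59 in parental cells.

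The beta-catenin machinery was mostly lower where it changed. Of 21 measured genes 10 fell and 1 rose, with a median of -0.16, against 19.0% lower and 15.3% higher among all genes. Of the 21, 20 were above the median signal, and the 52.4% called is near the 55.9% called among all genes that bright, of which 31.5% were lower. The 21 include TCF3, named after its value was seen, which was at 0.13 and did not pass. It does not encode a TCF/LEF factor and is a different gene from TCF7L1, which was not analysed here. CREBBP, the gene of an acetyltransferase that serves beta-catenin as a co-activator, fell to 9.39 ± 0.11 in knockout cells, against 10.03 ± 0.06 in parental cells (SD, n = 5 each), a difference of -0.64 ± 0.06 (SE, limma adjusted p = 4.07e-06). Its relative EP300, named after its value was seen, was at 0.16 and did not pass. RNF146, whose product marks AXIN for destruction, fell by 0.50. FBXW11 fell by 0.46 and BTRC by 0.31; both encode F-box proteins that recognise phosphorylated beta-catenin.

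The fall of the co-activator gene PYGO1 was -0.40 and that of CBY1, a beta-catenin antagonist, was -0.40. BCL9L, another co-activator gene, was at -0.38 by the probe set used and at 0.12 by its other probe set (limma adjusted p = 0.438). It lies on chromosome 11 among neighbours of which 19 of 20 fell, with a median of -0.77, a larger fall than its own. How far that neighbourhood enters the BCL9L fall was not tested. GSK3B, one of the kinases of the destruction complex, fell by 0.27, and GSK3A by 0.16, a call that ended under 8 of 17 alternatives. The 1 rise, that of the Dishevelled-binding protein gene CCDC88C at 0.18, did not pass under 6 of 17. BTRC, GSK3A, GSK3B and CCDC88C were chosen after their values were seen.

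Of 16 genes of the polarity and calcium routes 3 rose and 4 fell, a share of 43.8% called, where 34.3% of all genes were. All 7 were among the 11 genes of the list above the median signal, beside 55.9% called of all genes that bright. DAAM1, a formin gene acting downstream of Dishevelled, fell by 0.79, the JNK gene MAPK9 by 0.68 and the small GTPase gene RHOU by 0.53. NLK, a kinase gene chosen after its value was seen, fell by 0.19 and did not pass under quantile normalisation (adjusted p = 0.0632). The planar polarity genes PRICKLE1, PRICKLE2 and PRICKLE3 rose by 0.42, 0.35 and 0.32. The other probe set of PRICKLE2 gave 0.05 and did not pass.

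**Figure D4:**
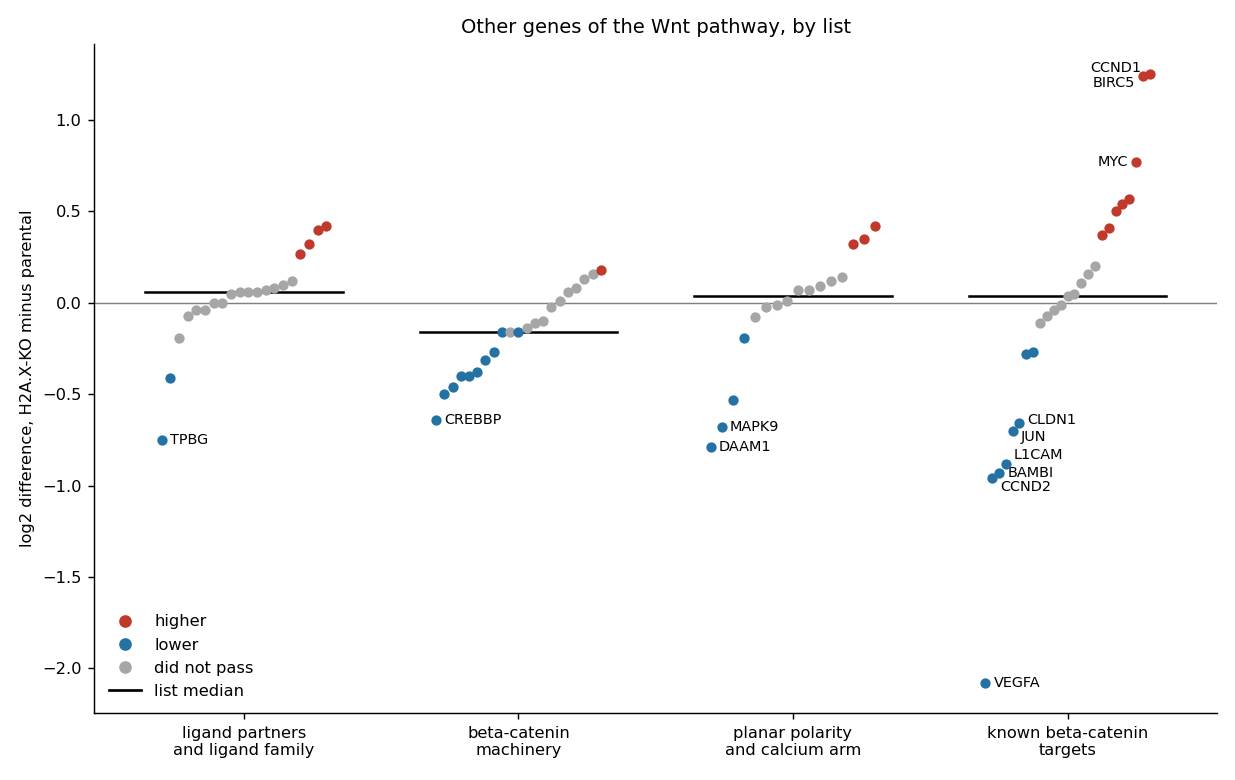
Log2 difference, H2A.X-KO minus parental, of 82 further Wnt pathway genes in 4 lists, each point a gene, ordered by value within its list, red where higher, blue where lower and grey where the test was not passed; black bars are list medians. The beta-catenin machinery has its median at -0.16, and the target list spans from VEGFA at -2.08 to CCND1 at 1.25.

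Genes known as beta-catenin targets in other systems rose and fell in equal number. Of 25 measured, 8 rose and 8 fell, with a median of 0.04. That is 64% called, where 34.3% of all genes were. Of the 25, 17 were above the median signal and 13 of these were called, beside 55.9% of all genes that bright. The list was chosen with earlier results of these data known, so its share called is a description only. The cell cycle gene CCND1 was at 9.90 ± 0.03 in knockout and 8.65 ± 0.08 in parental cells (SD, n = 5 each), a difference of 1.25 ± 0.05 (SE, limma adjusted p = 3.31e-09). The mitotic survivin gene BIRC5 rose by 1.24, and MYC was at 10.50 ± 0.04 in knockout and 9.73 ± 0.08 in parental cells. BIRC5 lies on chromosome 17 among neighbours of which 16 of 20 rose, with a median of 0.43. How far that neighbourhood enters the BIRC5 rise was not tested. CD44, a surface glycoprotein gene, rose by 0.50.

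VEGFA, the gene of an angiogenic growth factor, fell to 6.41 ± 0.13 in knockout cells, against 8.50 ± 0.11 in parental cells (SD, n = 5 each). CCND2 fell by 0.96, or by 0.24 by its other probe set, BAMBI, a pseudoreceptor gene of the TGF-beta family, by 0.93 and the adhesion molecule gene L1CAM by 0.88. JUN fell by 0.70 and the claudin gene CLDN1 by 0.66. CD44, JUN and CLDN1 were chosen after their values were seen. Most of these genes answer to several other pathways as well.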

How the data were processed

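The deposited table gives a log2 signal for every probe set on each array, as the authors processed it; the log2 scale was read from the values, which ran from 1.13 to 13.87. Affymetrix Expression Console and Partek 6.6 were used, per the submitters' processing notes; summarisation, filters and build are not stated in those notes as given here. Of 53617 probe sets, 16098 had 1 gene symbol, all matched by identifier to RefSeq GRCh38.p14, 0 had several and 37519 had none here. Each of 14884 genes was represented by its probe set of highest mean. Differences were tested with limma 3.58.1 (lmFit, eBayes; R 4.3.3), two-sided, with no covariate and no filter, Benjamini-Hochberg over all genes. With 5 arrays a group, their number limits the precision: the median standard error was 0.08. Members and lists were chosen with earlier results of these data known. Genes named beyond the members are, per list, the up to 6 called genes with the largest differences, with MYC and CCND1. RSPO1 to RSPO4, EP300, TCF3, BTRC, GSK3A, GSK3B, CCDC88C, NLK, CD44, JUN and CLDN1 fall outside this rule and were named after their values were seen. Python 3.11.15 and matplotlib 3.10.9 drew the plots. The alternatives were other probe set rules, quantile normalisation, centring, a filter on dim genes, an intensity trend, a replicate block and leaving out each array.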

Additional observations from a re-analysis of the deposited data

Results flagged for a closer look

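In 72 named genes, each with 2 groups of 5 arrays, 10 of 144 groups held an array whose gap to its nearest neighbour was larger, as a share of the group's range, than Dixon's 95% critical value; chance flags about 1 in 20 groups. Among the Wnt genes, FZD1 was at 5.13 in parental replicate 1, against 5.47 to 5.52 in the other parental arrays. FZD3 was at 7.22 in parental replicate 4, against 6.91 to 7.00. DKK3 was at 3.97 in knockout replicate 3, against 4.20 to 4.24 in the other knockout arrays. SFRP5 was at 4.70 in the same array, against 5.07 to 5.21. SFRP4 was at 3.51 in parental replicate 2, against 3.57 to 3.59. LEF1 was at 4.25 in knockout replicate 1, against 4.55 to 4.63. Among the further pathway genes, SDC1 was at 8.67 in knockout replicate 1, against 8.81 to 8.87. PYGO1 was at 5.83 in knockout replicate 2, against 5.60 to 5.65, and BTRC at 7.78 in knockout replicate 5, against 7.49 to 7.57. NLK was at 8.10 in parental replicate 4, against 7.99 to 8.01. Knockout replicate 1, which stood apart on the second principal component, gave 2 of these 10.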

How the results depend on the processing

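Of the 8 called Wnt genes, DKK1, SFRP1, FZD2, FZD6, LRP5, LRP6 and LGR4 passed in the same direction under all 17 alternatives. Leaving out an array gave 5 to 7 Wnt genes higher and 2 to 5 lower, the 5 without knockout replicate 3. With the replicate block, 6 were higher and 3 lower; of all genes called higher there were 2201 and of all genes called lower 2771. RNF43 passed with it (0.18, adjusted p = 0.0459). Same-numbered arrays deviated together weakly, at correlations of -0.0144 to 0.199, the highest for replicate 1. Of 5 knockout arrays 1, replicate 1, correlated best with its own number. The labels do not say if same-numbered arrays shared a culture or batch, and weak correlations cannot decide it. RNF43 also passed under quantile normalisation (0.22), without the dimmest genes (0.18), without knockout replicate 1 and without parental replicate 2. Small differences changed sign under quantile normalisation for FZD5 (0.01), RYK (0.01) and APC (0.03). With an array left out, ranges crossing 0 were -0.02 to 0.12 for WNT2, -0.04 to 0.03 for FZD5, -0.08 to 0.01 for ROR1, -0.03 to 0.10 for ROR2, -0.07 to 0.08 for SFRP2, -0.0034 to 0.04 for SFRP4, -0.11 to 0.02 for SFRP5, -0.09 to 0.04 for AXIN2, -0.06 to 0.04 for APC and -0.03 to 0.08 for NKD2. The median over Wnt genes was 0.13 without the dimmest genes, which left 20 of 39. The cause of these changes was not tested.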
